A study of Mus musculus with 10 samples.

Results

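Calcium-activated potassium channels open when calcium enters the neuron during an action potential, and the potassium current they carry helps to end the spike and to hold the cell below threshold afterwards. The small-conductance SK channels, bound to calmodulin, sense calcium alone and carry much of the afterhyperpolarization that limits the firing rate of motor neurons. The large-conductance BK channel needs calcium and depolarization together and acts on the falling phase of the spike. In rodents the afterhyperpolarization lasts longer in slow than in fast motor neurons, and SK3 protein, the product of Kcnn3, is found mainly on smaller, slow-type alpha motor neurons, at the C-bouton synapses, whereas SK2, the product of Kcnn2, is found on alpha motor neurons in general.

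The 7 genes described here are the SK pore genes Kcnn1, Kcnn2 and Kcnn3, the intermediate-conductance pore gene Kcnn4, the BK pore gene Kcnma1 and the BK auxiliary subunits Kcnmb2 and Kcnmb4. They were chosen by symbol from the 51912 genes counted. All 7 had at least 1 count, and 5 passed the filter on low counts, Kcnn4 and Kcnmb2 being removed.

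The data are 10 libraries of polyadenylated RNA, each from a pool of about 50 laser-captured lumbar motor neurons of 1 mouse. Muscle of the 5 HSA-NRTN mice expresses neurturin from the human skeletal actin promoter, so the transgene works outside the neurons sampled, and the 5 controls were wild-type littermates. Each group held 3 females and 2 males, and neither age nor treatment is stated in the labels. Only cells with a visible nucleolus and an area above a minimum were taken, so small motor neurons are missing from both groups. The series asks how neurturin from muscle bears on slow motor neuron identity. In such pools, fewer cells of a type and less RNA per cell cannot be told apart.

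Gene counts per library ran from 1875971 to 6641695, with the lowest in HSA-NRTN 2. All 7 motor neuron markers examined were present in all libraries, at a summed level of 5518 to 8362 CPM (gene counts scaled to a common library total, after TMM correction of library sizes) in HSA-NRTN and 6478 to 8344 CPM in wild-type libraries. The sums of 6 astrocyte markers ran from 46.4 to 748 CPM and from 50.7 to 295 CPM in the 2 groups, and those of 6 oligodendrocyte markers from 270 to 1419 CPM and from 201 to 641 CPM, with both maxima in HSA-NRTN 2. Those of 4 inhibitory interneuron markers ran from 11.1 to 160 CPM and from 0.688 to 172 CPM, with the maximum in wild-type 1. Sums of 7 endothelial and mural cell markers were 6.41 to 85.4 CPM and 3.05 to 12.4 CPM, with the maximum in HSA-NRTN 2. Their part in the results was not tested. HSA-NRTN 2 and wild-type 1 were least like the other libraries, with median correlations across genes of 0.771 and 0.810.

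The pores of these channels share the glycine-tyrosine-glycine motif of potassium channel selectivity filters. The coding sequence around it is shown for the pore genes Kcnn1, Kcnn3, Kcnn4 and Kcnma1. It shows how far the sequences of these genes match at that site. The stretch of Kcnn2 is not reported here. The stretches come from GENCODE M21 transcripts on GRCm38, read 5′ to 3′ on the coding strand, each within 1 exon, with the codons of the motif in capitals. Kcnn1 was read from chr8:70850633-70850689 on the minus strand, Kcnn3 from chr3:89645494-89645550 on the plus strand, Kcnn4 from chr7:24379180-24379236 on the plus strand and Kcnma1 from chr14:23528389-23528445 on the minus strand.
Kcnn1: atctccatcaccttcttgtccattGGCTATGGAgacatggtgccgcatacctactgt
Kcnn3: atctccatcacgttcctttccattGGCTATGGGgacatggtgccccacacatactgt
Kcnn4: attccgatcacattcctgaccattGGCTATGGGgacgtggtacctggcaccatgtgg
Kcnma1: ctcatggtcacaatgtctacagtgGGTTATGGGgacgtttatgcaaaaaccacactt
Of the 57 bases, 7 differed between Kcnn1 and Kcnn3, 17 between Kcnn1 and Kcnn4 and 16 between Kcnn3 and Kcnn4. Kcnma1 differed from the 3 others at 28 to 30 bases. Over whole annotated transcripts, no run of 50 bases was shared between any of the SK genes, so no read of that length can match 2 of them exactly.

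Ordered by mean level per kilobase of exons in wild-type libraries, the only scale on which genes are compared with each other here, the BK auxiliary subunit and the BK pore came first and Kcnn2 was the main SK gene. Kcnmb4 lay at 9.96 ± 5.27 CPM per kb, Kcnma1 at 6.70 ± 2.48 and Kcnn2 at 5.98 ± 1.92 (SD, n = 5 wild-type libraries). Kcnn1 followed at 0.910 ± 0.692 CPM per kb and Kcnn3 at 0.613 ± 0.782. Kcnn4 lay at 0.106 ± 0.190 CPM per kb, and Kcnmb2 had no count in wild-type libraries. The range of Kcnmb4 overlapped that of Kcnma1, and that of Kcnma1 overlapped that of Kcnn2. Kcnma1 exceeded Kcnn2 in 3 of 5 libraries in each group, so their order does not hold beyond the spread. Kcnn2 exceeded Kcnn1 in all 10 libraries with ranges apart in wild-type, the only such step in the order. Kcnn1 exceeded Kcnn3 in 4 of 5 wild-type and 3 of 5 HSA-NRTN libraries.

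**Figure D1:**
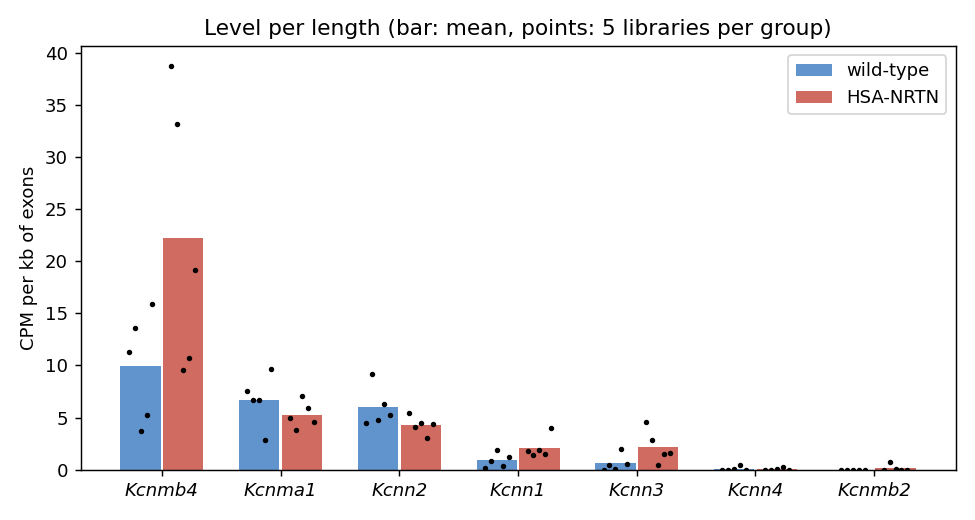
Level per length of the 7 genes in CPM per kilobase of annotated exons (bars, mean; points, the 5 libraries of each group), ordered by the wild-type mean. Kcnmb4 leads at 9.96 in wild-type and 22.3 in HSA-NRTN libraries, and Kcnn2 stands above the other SK genes in both groups.

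These levels depend on which transcripts motor neurons use. With the longest annotated transcript as the length, Kcnn2 came to 12.1 CPM per kb and Kcnma1 to 9.41, which turns their order. With the longest protein-coding transcript, Kcnn3 came to 2.22 CPM per kb, above Kcnn1 at 1.03.

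Between the genotypes, the HSA-NRTN means of Kcnmb4, Kcnn3 and Kcnn1 were higher and those of Kcnn2 and Kcnma1 lower, and no member's difference was called. With edgeR's quasi-likelihood test 0 of 5 members passed a Benjamini-Hochberg adjusted p of 0.05, against 0.0086% of 11630 genes, and 1 of 5, a gene with the higher mean in HSA-NRTN, had an unadjusted p under 0.05, against 4.83% of all genes (2.41% higher and 2.42% lower). DESeq2 called 0 of 7 members (2 unadjusted), against 0.498% of all genes called and 5.21% unadjusted. Limma voom called 0 of 5 (2 unadjusted), against 0.0258% and 5.76%. In none of the 5 were the groups apart, against 1.25% of all genes tested. The median log2 fold change of the 5 was 1.15, with 3 above and 2 below 0, and that of all tested genes -0.01, with 5648 above and 5982 below 0. Without HSA-NRTN 2 and wild-type 1 together, the log2 fold changes were 1.07 for Kcnn1, -0.56 for Kcnn2, 1.39 for Kcnn3, -0.20 for Kcnma1 and 1.01 for Kcnmb4, and none passed.

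Among the SK pore genes, Kcnn2 (ENSMUSG00000054477) encodes the SK2 subunit. It read 40.6, 30.8, 33.7, 22.5 and 32.5 CPM in HSA-NRTN 1 to 5 and 33.3, 68.5, 35.4, 46.8 and 39.3 CPM in wild-type 1 to 5. Wild-type 2 was the highest, 3 of the HSA-NRTN values were under the wild-type minimum, and the groups overlapped. The means were 32.0 ± 6.50 and 44.7 ± 14.3 CPM (SD, n = 5 each), and the log2 fold change was -0.48 (SE 0.31, adjusted p = 0.999, edgeR). It was -0.26 without wild-type 2 and -0.78 within the second run of animal numbers, a split of the labels given with Kcnmb4.

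Kcnn3, the SK3 subunit gene (ENSMUSG00000000794, chr3:89520164-89675132, plus strand, GRCm38), read 47.7, 29.7, 5.13, 15.7 and 17.0 CPM in HSA-NRTN 1 to 5. In wild-type 1 to 5 it read 0, 4.81, 0.938, 20.3 and 5.95 CPM. HSA-NRTN 1 and 2 lay above all wild-type libraries, wild-type 4 lay above the 3 remaining HSA-NRTN libraries, and the groups overlapped. The means were 23.1 ± 16.3 and 6.40 ± 8.17 CPM, a ratio of 3.60, and the log2 fold change was 1.82 (SE 0.91, unadjusted p = 0.0633, adjusted p = 0.999, edgeR). Wild-type 4 weighs on this value, and without it the log2 fold change was 2.96. It was 0.83 in females alone, 2.83 in males alone and 1.03 within the second run of animal numbers. The 118 counts of wild-type 4 make up most of the 169 Kcnn3 counts of the wild-type group, against 423 in HSA-NRTN libraries. The authors' deposited table gives Kcnn3 a log2 fold change of 0.76 (SE 0.41) and no p-value.

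Kcnn1, the SK1 subunit gene (ENSMUSG00000002908, chr8:70842049-70863258, minus strand), was low throughout. It read 8.01, 6.49, 8.61, 6.98 and 18.5 CPM in HSA-NRTN 1 to 5 and 0.918, 3.96, 8.68, 1.55 and 5.75 CPM in wild-type 1 to 5. HSA-NRTN 5 stood above the rest, and wild-type 3 came next, above the other 4 HSA-NRTN libraries, so the groups overlapped. The log2 fold change of 1.22 (SE 0.70, adjusted p = 0.999, edgeR) rests on means of 9.72 ± 4.98 and 4.17 ± 3.18 CPM, and on 210 against 93 counts. It was 0.84 without HSA-NRTN 5.

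Kcnn4 (ENSMUSG00000054342, chr7:24370263-24386690, plus strand), whose intermediate-conductance channel is best known from red blood cells and lymphocytes, had 13 counts over the HSA-NRTN group and 15 over the wild-type group. They came from HSA-NRTN 3 and 4, at 0.550 and 1.43 CPM, and from wild-type 3 and 4, at 0.469 and 2.24 CPM, and the 6 other libraries had 0. The ratio of the pooled levels was 0.916, with an exact 95% interval of 0.401 to 2.06 that covers counting error only. The summed level of 4 erythroid genes, the haemoglobins, was 2.00 to 43.2 CPM in the HSA-NRTN and 2.27 to 10.5 CPM in the wild-type group. In the libraries with Kcnn4 counts it was 42.1 (HSA-NRTN 3), 2.00 (HSA-NRTN 4), 10.1 (wild-type 3) and 6.88 CPM (wild-type 4). A link between these genes and Kcnn4 was not tested.

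Set beside each other within a library, the SK genes gave Kcnn2 a smaller share in HSA-NRTN pools. Kcnn2 made up 46.3%, 49.2%, 64.6%, 47.7% and 43.5% of the summed SK level per kb in HSA-NRTN 1 to 5, Kcnn4 being counted among the SK genes for this sum. In wild-type 1 to 5 its share was 95.7%, 87.4%, 69.6%, 69.8% and 74.3%. The groups did not overlap, with a gap between 64.6% and 69.6%. The edges of that gap are HSA-NRTN 3 and wild-type 3, so leaving out HSA-NRTN 2 and wild-type 1 could not move them. The share is a description without a test, and how often shares within other gene sets separate the groups was not counted. With the longest protein-coding transcript as the length the groups overlapped, at 37.3% to 68.6% against 59.8% to 97.6%. With counts not divided by length they also overlapped, at 42.2% to 70.2% against 66.0% to 97.3%. With the longest annotated transcript they stayed apart, at 57.2% to 76.0% against 78.7% to 97.6%, so the separation depends on the length used. Kcnn3 made up 7.02% to 38.9% of the sum in HSA-NRTN (median 23.7%) and 0% to 21.6% in wild-type libraries (median 4.39%). Kcnn1 made up 14.9% to 40.2% (median 24.1%) and 3.76% to 27.8% (median 8.23%). The ratio of Kcnn3 to Kcnn2 per kb had a median of 0.497 in HSA-NRTN (0.109 to 0.840) and 0.0502 in wild-type libraries (0 to 0.310), and these ranges overlapped.

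**Figure D2:**
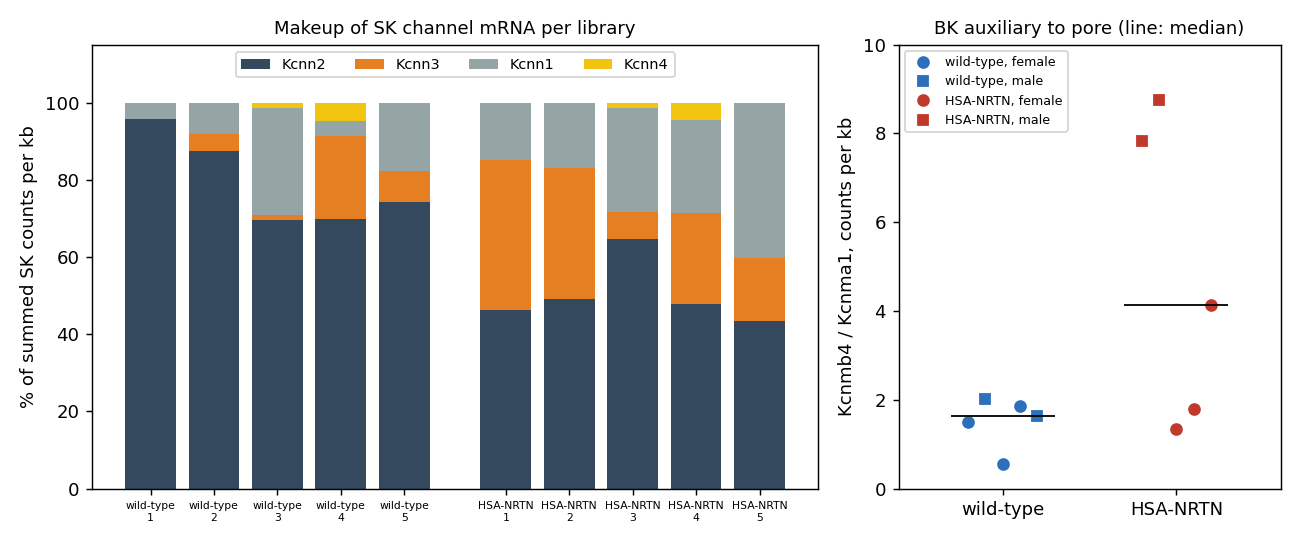
Left, share of each SK gene in the summed SK counts per kilobase of each library, as percent. Right, ratio of Kcnmb4 to Kcnma1 counts per kilobase for each library (circles females, squares males, line median). Kcnn2 takes 69.6% to 95.7% of the sum in wild-type and 43.5% to 64.6% in HSA-NRTN libraries, and the highest ratios, 7.83 and 8.76, are those of the HSA-NRTN males. With the longest protein-coding transcript as the length, or with counts not divided by length, the Kcnn2 shares of the groups overlap.

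Kcnma1 (ENSMUSG00000063142, chr14:23289431-24014491, minus strand) encodes the pore of the BK channel. It read 83.9, 64.3, 120, 101 and 78.4 CPM in HSA-NRTN 1 to 5 and 128, 114, 114, 48.2 and 164 CPM in wild-type 1 to 5. Wild-type 4 was lower, and wild-type 1 and 5 were higher, than every HSA-NRTN library. The means were 89.6 ± 21.6 and 114 ± 42.0 CPM (SD, n = 5 each), and the log2 fold change was -0.34 (SE 0.30, adjusted p = 0.999, edgeR). It was -0.17 without wild-type 5 and -0.54 without wild-type 4. In females alone the sign turned, to 0.07, and in males alone the value was -0.92.

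Kcnmb4 (ENSMUSG00000054934) encodes the beta4 subunit, the main BK auxiliary subunit of neurons, which slows the opening of the channel. It read 129, 110, 31.9, 35.5 and 63.6 CPM in HSA-NRTN 1 to 5, and 37.6, 45.0, 12.4, 17.6 and 53.0 CPM in wild-type 1 to 5. HSA-NRTN 1, 2 and 5 lay above all wild-type libraries, HSA-NRTN 3 and 4 lay within their range, and the groups overlapped. The means were 74.0 ± 43.8 and 33.1 ± 17.5 CPM (SD, n = 5 each), a ratio of 2.23. Its log2 fold change was 1.15 (SE 0.47), and it was the 1 member with an unadjusted p under 0.05 (0.0265), but edgeR's adjusted p was 0.941. The authors' deposited table gives Kcnmb4 a log2 fold change of 0.92 (SE 0.30) with an adjusted p of 0.130.

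The animal numbers in the labels fall into 2 runs that the labels do not call batches, HSA-NRTN 1, 2 and 3 and wild-type 1 being of the first run, which holds too few wild-type libraries for a value of its own. With the run as a covariate the log2 fold change of Kcnmb4 was 0.85, and within the second run alone 0.65. It was 0.85 without HSA-NRTN 1, and 1.68 with the count of detected genes in the model. The unadjusted p was under 0.05 in 15 of the 24 alternatives, and adjusted p ranged from 0.179 to 0.99996.

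Kcnmb2 (ENSMUSG00000037610, chr3:31902507-32200180, plus strand), the gene of the beta2 subunit that makes BK currents inactivate, had 5 counts, 4 in HSA-NRTN 2 (2.16 CPM) and 1 in HSA-NRTN 3 (0.183 CPM), and 0 in wild-type libraries. Without HSA-NRTN 2 a single count is left, under the floor of 3 counts that a group at 0 allows, so no fold is given. HSA-NRTN 2 is also the library with the highest glial marker sums.

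The ratio of Kcnmb4 to Kcnma1 per kb was 7.83, 8.76, 1.35, 1.80 and 4.14 in HSA-NRTN 1 to 5 and 1.50, 2.01, 0.556, 1.86 and 1.64 in wild-type 1 to 5. The medians were 4.14 and 1.64. HSA-NRTN 1, 2 and 5 exceeded every wild-type library and the other two lay within the wild-type range.

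**Figure D3:**
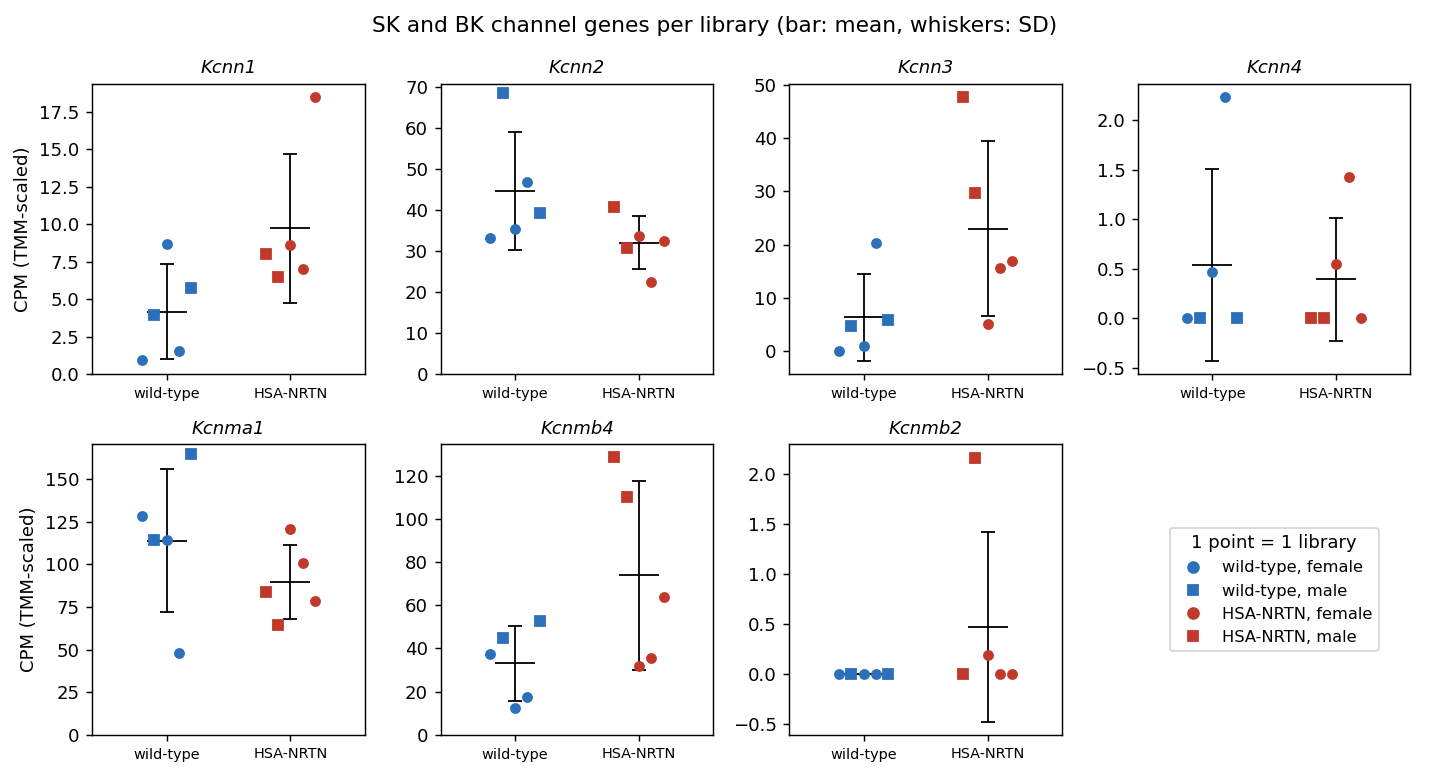
Level of each gene in CPM in the 10 libraries (circles females, squares males, bar mean, whiskers SD, n = 5 per group). The groups overlap in each panel, and Kcnmb4 and Kcnn3 reach their highest values, 129 and 47.7 CPM, in HSA-NRTN 1.

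**Figure D4:**
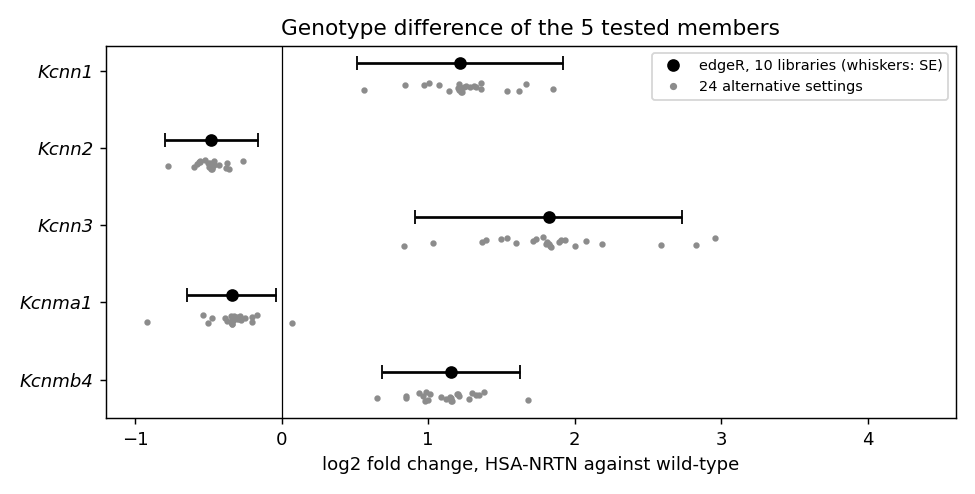
Log2 fold change, HSA-NRTN against wild-type, of the 5 members tested (black, edgeR on 10 libraries with SE, and grey, the 24 alternative settings). Of the 120 alternative values 119 keep their sign, and the exception is Kcnma1 in females alone at 0.07.

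Both sexes were present in both groups, which allows a comparison of males with females with genotype in the model. Kcnmb4 stood out among the members: its males read 110 to 129 CPM and its females 31.9 to 63.6 CPM in HSA-NRTN pools, and 45.0 to 53.0 against 12.4 to 37.6 CPM in wild-type pools. The males lay above all females in both genotypes, as they did for 2.22% of all tested genes. The male-minus-female log2 difference was 1.29 (SE 0.34, unadjusted p = 0.00173, adjusted p = 0.359, edgeR), which did not pass. Genes higher in males at an unadjusted p under 0.05 were 4.77% of all tested. The adjusted p passed in DESeq2 (0.0329), with no filter on low counts (0.0339) and without wild-type 1 (0.0262), and the log2 difference lay between 1.17 and 1.65 over the 18 alternatives. Of the 5 members, 0 passed and 1 had an unadjusted p under 0.05 in edgeR, against 0.0086% and 11.2% of all genes. DESeq2, which gave Kcnn3 no p-value here, called 1 of 6 (1 unadjusted), against 0.800% of all genes called and 9.26% unadjusted. Voom called 0 of 5 (2 unadjusted), against 0% and 10.4%.

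Kcnn3 lay higher in HSA-NRTN males, at 29.7 and 47.7 CPM, than in HSA-NRTN females, at 5.13 to 17.0 CPM, while in wild-type pools the males, at 4.81 and 5.95 CPM, lay within the female range of 0 to 20.3 CPM. Its sex difference was 0.70 on the log2 scale (SE 0.94) and its genotype by sex interaction 2.03 (SE 1.82, adjusted p = 0.941, edgeR). Both rest on single libraries: without wild-type 4 the sex difference was 2.29 (adjusted p = 0.470, edgeR) and the interaction turned to -1.84, and without HSA-NRTN 1 the sex difference was 0.27 and without HSA-NRTN 3 it was 0.38. Both HSA-NRTN males carry animal numbers of the first run and both wild-type males of the second, so the genotype difference in males and the run cannot be told apart. In the interaction test 0 of 5 members passed and 0 had an unadjusted p under 0.05 in edgeR, DESeq2 or voom, against 0% and 5.14% of all genes in edgeR.

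**Figure D5:**
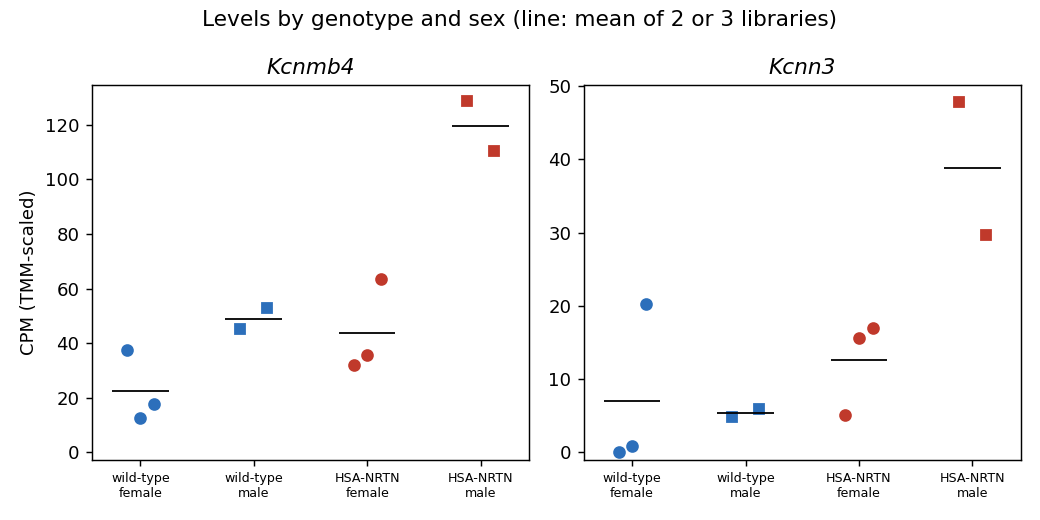
Kcnmb4 and Kcnn3 in CPM by genotype and sex (points, libraries; line, mean of 2 males or 3 females). Kcnmb4 is higher in males in both genotypes, with means of 119 against 43.7 CPM in HSA-NRTN and 49.0 against 22.5 CPM in wild-type libraries, while the wild-type males of Kcnn3 lie within the female range.

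Other genes of these channels and of their calcium supply were counted for the same comparison, and none passed an adjusted p of 0.05 in edgeR. Of the 9 other Slo and auxiliary genes 2 were tested, Kcnt1 and Kcnt2, both lower. Of those not tested, Lrrc52 had 109 counts over the HSA-NRTN and 10 over the wild-type group. Lrrc38 had 22 and 5, Kcnu1 30 and 19, Kcnmb1 and Kcnmb3 3 and 0 each, Lrrc26 1 and 5, and Lrrc55 none. Kcnt1, a sodium-activated potassium channel, lay at 37.8 ± 10.5 against 55.2 ± 13.3 CPM (log2 fold change -0.55, SE 0.30). Its paralog Kcnt2 lay at 11.1 ± 6.86 against 22.8 ± 13.7 CPM (-1.06, SE 0.57). All 8 SK partner genes, calmodulins, casein kinase 2 and protein phosphatase 2A subunits bound to the SK channel, had negative log2 fold changes with a median of -0.17, and 0 had an unadjusted p under 0.05 in edgeR, DESeq2 or voom. The furthest from 0 was Calm3, a calmodulin gene, at -0.51 (SE 0.41).

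Of the 14 calcium source genes, voltage-gated channels and intracellular release channels, 12 were tested, 7 with positive and 5 with negative values and a median of 0.14. Cacna1e, the R-type calcium channel pore, was the 1 gene with an unadjusted p under 0.05, at 1.39 ± 2.08 against 9.64 ± 4.98 CPM (log2 fold change -2.76, SE 0.98, adjusted p = 0.835, edgeR). Ryr3, a ryanodine receptor, lay at 16.8 ± 8.99 against 33.7 ± 16.8 CPM. Of the 6 genes of the C-bouton site, where SK channels cluster, 5 were below and 1 above 0, with a median of -0.38. Chrm2, the muscarinic receptor of that synapse, lay at 390 ± 150 against 520 ± 76.3 CPM (-0.41, SE 0.26) and Jph3, a junctophilin that ties the surface membrane to calcium stores, at 38.1 ± 10.1 against 59.7 ± 17.2 CPM (-0.64, SE 0.31).

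Markers of motor neuron type were counted in the same fit, and none passed in edgeR. All 5 tested of 6 fast markers had negative log2 fold changes (median -1.61) and 3 an unadjusted p under 0.05, against 4.83% of all genes. The fast marker that failed the filter, Dlk1, went the other way. It had 47 counts over the HSA-NRTN and 3 over the wild-type group, from 4 libraries in all. Of the fast markers 0 passed in edgeR. In DESeq2 3 of 6 passed, where 0.498% of all genes did, and in voom 1 of 5, where 0.0258% did. The marker lists were written with earlier results of these data known, so these rates cannot test whether such markers changed more than other genes. The 3 slow markers had positive values (median 0.63), 1 with an unadjusted p under 0.05, Esrrg, and 0 passed in edgeR, DESeq2 or voom.

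The genes most like each member over the 10 libraries were found by Pearson correlation of log2 CPM, with each correlation after centring the genotypes given second, as a description with no test. Kcnmb4 was most like Bsg (0.964 and 0.950), Slc2a1 (0.952 and 0.931) and Pnmal1 (0.938 and 0.925). Kcnn3 was most like Wfs1 (0.969 and 0.957), Tgfb1i1 (0.952 and 0.931) and Chl1 (0.945 and 0.926). Kcnn2 was most like Ppp3cb (0.948 and 0.939), Nmnat2 was among the 3 genes most like Kcnma1 (0.887 and 0.906), and Kcnn1 was most like Zkscan6 (0.956 and 0.931). All points share the libraries and their depth, and each list is the top of 11630 genes.

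The libraries mark no strand, so reads from an antisense partner cannot be told from those of the member it overlaps. Kcnmb4 (chr10:116417861-116473878, minus strand, GRCm38) shares 693 bases of exon with Kcnmb4os2, which had 36 counts over the HSA-NRTN and 22 over the wild-type group, and 355 bases with Kcnmb4os1, which had none. Kcnma1 shares 1016 bases with 4930519K11Rik, which is not among the genes of the count files and so has no count. Kcnn2 shares 284 bases with A330093E20Rik, which had 32 counts in all, and 323 with a pseudogene that is also not among the genes counted. Kcnn1 shares 132 with A230052G05Rik, which had 0. Of the 3274 runs of 50 bases in Kcnmb4, 30.7% also occur in another gene on either strand. The corresponding shares were 6.82% for Kcnn2, 5.45% for Kcnma1 and 2.68% for Kcnn1, and 0% for Kcnn3, Kcnn4 and Kcnmb2. Since both strands were searched, these shares count the antisense overlaps above again and are not a separate problem to that extent. The shared runs lay in 1 other gene for Kcnma1, 2 for Kcnn2, 282 for Kcnn1 and 299 for Kcnmb4, and were not split by gene. How many reads this moved to or from Kcnmb4 was not measured, and its level is uncertain in that respect.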

How the data were processed

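The labels' protocols describe Smart-seq2 libraries cut with Tn5, without molecular identifiers. Per the submitters' processing notes, alignment used STAR 2.5.0a, counting used HTSeq and the genome was GRCm38.p6, while annotation and strand settings were not stated. The deposited count files hold raw counts of 51912 genes, 92 spike-ins and 5 tally entries, which were left out. Reads counted to genes were 13.5% to 42.3% of all reads. A deposited table holds a signal, counts divided by the authors' size factors, for 18754 features. Another deposited table gives log2 fold changes, a score and p-values from the authors' DESeq2 run.

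Counts were tested in R 4.3.3 with edgeR 4.0.16 (filterByExpr, TMM, quasi-likelihood F test, Benjamini-Hochberg over 11630 genes, called under 0.05), for genotype with no covariate, for sex with genotype in the model, and for their interaction. The common biological coefficient of variation was 0.595. DESeq2 1.42.0 and limma 3.58.1 voom were alternatives. Standard errors come from the F statistic. Levels per kilobase use the union of exons in GENCODE M21. The tests were checked on simulated counts. Groups and sex come from the labels, and replicate numbers follow record order. Each library is 1 mouse.

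The members and lists were chosen with earlier results of these data known. All 7 members are named, up to 4 genes of smallest unadjusted p per companion list, and up to 3 genes most like each member by correlation of log2 CPM with a prior count of 2. Some genes that this rule names are not reported here.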

Additional observations from a re-analysis of the deposited data

Results flagged for a closer look

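Among 13 groups of 5 libraries checked for a library far from the others, 3 had one, by a gap to the nearest library larger than 0.71 of the group's range. Chance gives about 1 in 20 for normally distributed values, a rate that does not apply to the Kcnn4 and Kcnmb2 groups, where 3 of 5 libraries had 0 counts. Kcnn1 read 18.5 CPM in HSA-NRTN 5, and the nearest library 8.61 CPM (0.823 of the range). Kcnn4 read 2.24 CPM in wild-type 4, from 13 counts, and the nearest library 0.469 CPM (0.790 of the range). Kcnmb2 read 2.16 CPM in HSA-NRTN 2, from 4 counts, and the nearest library 0.183 CPM (0.915 of the range), and HSA-NRTN 2 has the fewest gene counts and the highest glial marker sums.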

How the results depend on the processing

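Of 120 alternative genotype values of the members, 119 kept their direction, none had an adjusted p under 0.05, and Kcnma1 turned to 0.070 in females alone. The count of genes called over the whole table moved more. It was 126 in DESeq2, 3 in limma voom, 81 with no filter, 11 with a stricter filter, 5 with sex, 0 with the run of animal numbers and 10 with genes detected as a covariate, 0 in females, 0 in males, 9 with robust shrinkage, 2 in the second run, and 0 to 13 when 1 library was left out. The median log2 fold change of all genes was 0.14 in DESeq2 and 0.11 with no filter, against -0.01.

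The sex difference of Kcnmb4 passed at 1.28 in DESeq2 and 1.26 with no filter, and was 1.17 to 1.54 when 1 library was left out. That of Kcnn1 was 0.14 in voom and ran from -0.40 to 0.52 when 1 library was left out, that of Kcnma1 from -0.17 to 0.25 and that of Kcnn3 from 0.27 to 2.29, with 1.82 in voom. When 1 library was left out, interactions ran from -0.27 to 0.70 for Kcnmb4, -0.60 to 0.24 for Kcnn2 and -1.84 to 2.59 for Kcnn3. Without HSA-NRTN 2 and wild-type 1 together they were 0.071 for Kcnn2, -0.14 for Kcnmb4 and 2.91 for Kcnn3. The cause of these changes was not tested.

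The wild-type level per kb was 12.1 for Kcnn2 and 9.41 for Kcnma1 with either single-transcript length, 20.4 (longest) and 24.2 (longest protein-coding) for Kcnmb4, and 2.22 (longest protein-coding) for Kcnn3. With 1 library left out, the HSA-NRTN median divided by the wild-type median ran from 6.28 to 14.4 for Kcnn3 to Kcnn2 and from 1.81 to 3.64 for Kcnmb4 to Kcnma1. No paired analysis was possible because the replicate numbers follow record order and pair no animals. Alternatives added after seeing the data were those without HSA-NRTN 2 and wild-type 1, the second run alone, the longest protein-coding transcript, and all those of sex, interaction and ratios.

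About 50 cells per library limit the low genes: Kcnn4 and Kcnmb2 rest on 28 and 5 counts in all. PCR copies are not told apart, so the intervals and floors include no error but that of counting.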
